A study of Mus musculus with 6 samples.

Results

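Axon guidance ligands and receptors were taken as the rows of a mouse lung expression table whose symbol begins with Sema, Slit or Robo and a digit, with Ntn and a digit or g, or with Plxn, Unc5, Epha, Ephb, Efna or Efnb. The rule found 69 of 18174 rows, which carry 67 symbols because Ntn5 stands in 3 rows. Unc50, a Golgi and nuclear membrane protein, and Unc5cl, a death domain protein related to the netrin receptor Unc5c, match by name only and are not guidance receptors. The lungs came from wild-type male C57BL/6J mice, an inbred laboratory strain, that were held at 4 °C for 6 h (cold, 3 libraries) or stayed at room temperature (3 libraries). The labels call the 3 libraries of each group biological replicates and do not say whether each came from its own animal, so p-values measure the spread between these libraries. By its title the study concerns tyrosine hydroxylase-positive nerve fibres and epithelium of the lung, and cold against room temperature is the single comparison its design holds.

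Guidance molecules were first known for steering growing nerve fibres, and the same molecules shape vessels and epithelium. Semaphorins are secreted or membrane-bound ligands of plexins, and those of class 3 mostly need neuropilins as co-receptors. Slits bind robos, netrins bind Dcc, neogenin and the Unc5 receptors, and ephrins bind Eph receptor kinases on touching cells, with signals into both cells. In vessels, ephrin-B2 marks arteries, EphB4 marks veins, and Robo4, Plxnd1 and Unc5b are endothelial receptors.

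Values are given as scaled RPM, that is reads per M reads (M for mega) after scaling for library composition, and levels between genes only per kilobase of exon. The size of the steps in which low values move gives depths of 32.7 to 35.1 M reads for the cold libraries and 39.7 to 48.7 M for the room temperature ones. Of the 69 rows 60 passed a low-value filter, and 58 of these reached its minimum in all 6 libraries. The minimum was 0.267 RPM before scaling in 3 libraries, which is 10 reads at the median depth. It takes more reads in the deeper room temperature libraries than in the cold ones. Sema4g and Unc5d reached that minimum in all 3 cold libraries but not in all 3 room temperature libraries, so they passed through the group where they are higher. Over 15238 genes, limma with p-values adjusted by the Benjamini-Hochberg method called 70.5% at an adjusted p under 0.05, 35.5% higher and 35.0% lower in cold. Lung epithelial markers were present in each library. The 8 alveolar type 2 markers summed to 10487 to 14210 scaled RPM in cold and 3548 to 6266 at room temperature. Of these 8, 6 were called higher, and Sftpb and Sftpa1 were not called (log2 changes -0.08 and -0.12). Much of the gap between the sums lies in Sftpc, which averaged 7442 in cold and 817 at room temperature. The 15 endothelial markers, all called higher, summed to 3470 to 4003 in cold and 116 to 757 at room temperature. The 8 club cell markers, all called lower, summed to 21209 to 24477 in cold and 86225 to 115647 at room temperature. None of these 3 lists had a marker at 0. In whole tissue, fewer cells of a type, less RNA per cell and other sources of such differences cannot be told apart. Of 11 neuronal markers 6 were tested, 1 was higher and 3 were lower, with sums of 25.0 to 27.9 in cold and 8.48 to 15.6 at room temperature. Th, the gene of tyrosine hydroxylase, was at 0 in some libraries. Of 10 Schwann cell markers 9 were tested, 1 was higher and 5 were lower, yet their sums were 253 to 256 in cold and 155 to 173 at room temperature. All 8 ciliated cell markers were lower, and all 7 T and B cell markers and all 5 neutrophil markers were higher. Basal cell markers (3 of 3 tested lower) summed to 1.09 to 4.16 in cold and 116 to 314 at room temperature. Cardiomyocyte markers (6 of 7 lower) summed to 113 to 204 and 297 to 1263. Smooth muscle and pericyte markers (5 lower, 3 higher of 9) summed to 349 to 570 and 1870 to 2369. Mesothelial markers (1 lower of 4) summed to 7.74 to 11.9 and 92.1 to 233. Alveolar type 1 and macrophage markers were each higher in 6 of 8. The part of these cell types in the results below was not tested.

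Of the 60 tested members, 33 rose and 15 fell in cold, where 35.5% and 35.0% of all genes were called. The 33 include Sema4g and Unc5d, which passed the filter through the cold libraries, and the 15 include Unc5cl, matched by name only. Deposited values have 3 decimals, and with each moved to the edge of its rounding interval that brings the groups closer, 32 members were higher and 14 lower. The median log2 change was 0.85, beside 0.00 over all genes tested, and the median size of change without regard to sign was 1.15, beside 0.69. Changes of at least 1 on the log2 scale were called for 27 members upward and 8 downward, where 17.1% and 16.3% of all genes tested had such calls. The cold libraries lay wholly above the room temperature libraries for 35 members and wholly below them for 15, against backgrounds of 38.4% and 37.8%. With library totals as the only scaling, 36 members were higher and 10 lower, and 7034 and 3766 genes in place of 5413 and 5335. That scaling moves the median of all genes to 0.29, and the changes here are relative to the composition-scaled median. Ligands split into 20 higher and 6 lower of 33 tested, receptors into 13 higher and 8 lower of 25. The remaining pair tested were Unc50 and Unc5cl.

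**Figure D1:**
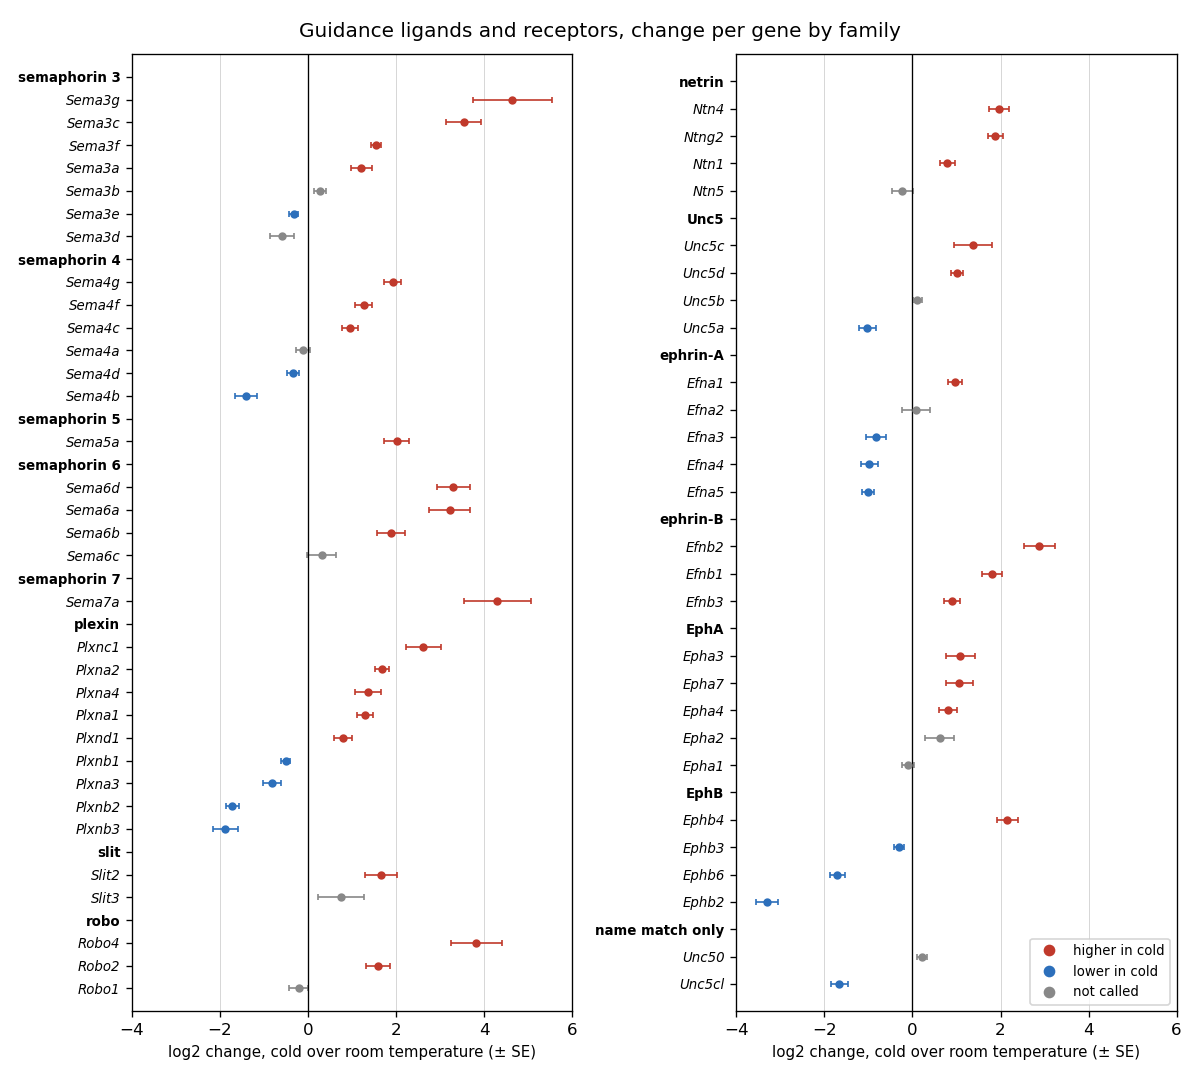
Log2 change of each tested member, cold over room temperature, with its SE as the bar, grouped by family. Points right of 0 are higher in cold; the 33 higher calls are red, the 15 lower calls blue and the 12 members without a call grey.

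Semaphorins gave the largest rises of the set. Of 19 tested 12 were called higher and 3 lower, around a median of 1.26 on the log2 scale. The shares over all genes tested were 35.5% and 35.0%. Sema3c, a secreted ligand needed for heart outflow vessels in mouse development, stood at 273, 210.2 and 268 scaled RPM in the cold libraries and at 17.7, 12.9 and 40.6 at room temperature. Every cold library held at least 5 times the value of any room temperature library (log2 change 3.53 ± 0.40 SE, adjusted p = 0.00038). Sema3g, made by arterial endothelium (chromosome 14, 31217860 to 31230352 on GRCm38), stood at 122, 114 and 121 in cold and 2.503, 1.18 and 21.6 at room temperature. Its cold libraries were close together, and room temperature replicate 3 lay far above the other two of its group (log2 change 4.63 ± 0.89, adjusted p = 0.0037). Sema3f, a repellent that acts through neuropilin 2, had 99.04, 94.996 and 90.7 in cold and 28.1, 31.5 and 37.8 at room temperature, groups that stood clear of each other (log2 change 1.54 ± 0.12, adjusted p = 6.1e-05). Sema3a, the classical growth cone collapse factor, was also higher at 22.9, 26.9 and 27.3 in cold and 12.02, 7.25 and 14.5 at room temperature (log2 change 1.20 ± 0.24, adjusted p = 0.0028).

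The class 3 semaphorins did not all follow. Sema3e, the ligand that binds Plxnd1 without a neuropilin, fell slightly, with 35.2, 39.8 and 39.3 in cold and 49.3, 43.8 and 50.8 at room temperature (log2 change -0.33 ± 0.10, adjusted p = 0.021). The groups did not overlap, but the call was lost without cold replicate 1 (adjusted p = 0.10), without room temperature replicate 1 (0.062) and under library totals (log2 change -0.01, adjusted p = 0.97). Sema3d had 4.02, 4.24 and 4.96 in cold and 6.35, 4.80 and 10.6 at room temperature, overlapping groups and an adjusted p of 0.075. It was called lower with the replicate number as a block (adjusted p = 0.038) and without room temperature replicate 2 (0.0093). Sema3b, at 31.8, 28.5 and 24.6 in cold and 21.8, 27.8 and 20.7 at room temperature, also overlapped (adjusted p = 0.13). It was called higher without room temperature replicate 2 (adjusted p = 0.030) and under library totals (0.0054).

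Membrane semaphorins are given by class. All 3 called members of class 6, whose receptors are A-type plexins, rose. Sema6d had 47.2, 42.5 and 50.1 scaled RPM in cold and 3.31, 2.70 and 8.49 at room temperature (log2 change 3.30 ± 0.37, adjusted p = 0.00031). Sema6a, also known from endothelium, had 48.8, 35.6 and 47.1 in cold and 2.59, 2.80 and 9.79 at room temperature (log2 change 3.22 ± 0.47, adjusted p = 0.0011). For both genes the lowest cold library was over 3 times the highest room temperature library, which was replicate 3. Sema6b had 6.49, 12.5 and 5.99 in cold and 1.78, 1.25 and 2.48 at room temperature (log2 change 1.88 ± 0.31, adjusted p = 0.0012), with cold replicate 2 well above the rest, and Sema6c overlapped between groups (adjusted p = 0.44). Sema7a, a lipid-anchored semaphorin with roles in immune cells and fibrosis, stood at 67.1, 74.9 and 57.1 in cold and 1.35, 1.17 and 12.1 at room temperature (log2 change 4.29 ± 0.76, adjusted p = 0.0025). Room temperature replicate 3 was again nearest to cold. Sema5a, which binds Plxnb3 and also acts on neurites and vessels, rose, with 17.7, 17.8 and 22.2 in cold against 4.65, 2.64 and 6.64 at room temperature (log2 change 2.01 ± 0.29, adjusted p = 0.00065).

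Class 4 held changes in both directions. Sema4g was scarce, with 2.17, 2.84 and 2.55 scaled RPM in cold and 0.180, 0.267 and 0.465 at room temperature (log2 change 1.92 ± 0.20, adjusted p = 0.00013). Because those room temperature values lie below the 0.5 RPM added before the log, this change is understated, and it was 3.10 by voom on recovered reads and 0.97 with 2 RPM added. Sema4f rose at 18.7, 16.4 and 16.9 in cold and 6.35, 5.41 and 9.63 at room temperature and Sema4c at 23.2, 23.1 and 20.9 in cold and 12.4, 14.1 and 8.46 at room temperature (log2 changes 1.26 and 0.94). Sema4b fell, with 8.78, 8.21 and 7.95 in cold and 28.2, 29.2 and 14.7 at room temperature (log2 change -1.42 ± 0.25, adjusted p = 0.0018), and replicate 3 was the lowest of its room temperature libraries. Sema4d, a ligand of Plxnb1 that T cells carry, had 10.2, 11.2 and 8.13 in cold and 12.6, 12.6 and 12.4 at room temperature. The groups were apart but the change was small, at -0.35 ± 0.13 with an adjusted p of 0.047. That call was lost without cold replicate 1 (adjusted p = 0.097) or 3 (0.15), without room temperature replicate 1 (0.097) or 2 (0.067), without the low-value filter (0.0545) with values at their rounding edges (0.0539) and under library totals (0.82). Sema4a overlapped between groups (adjusted p = 0.53).

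**Figure D2:**
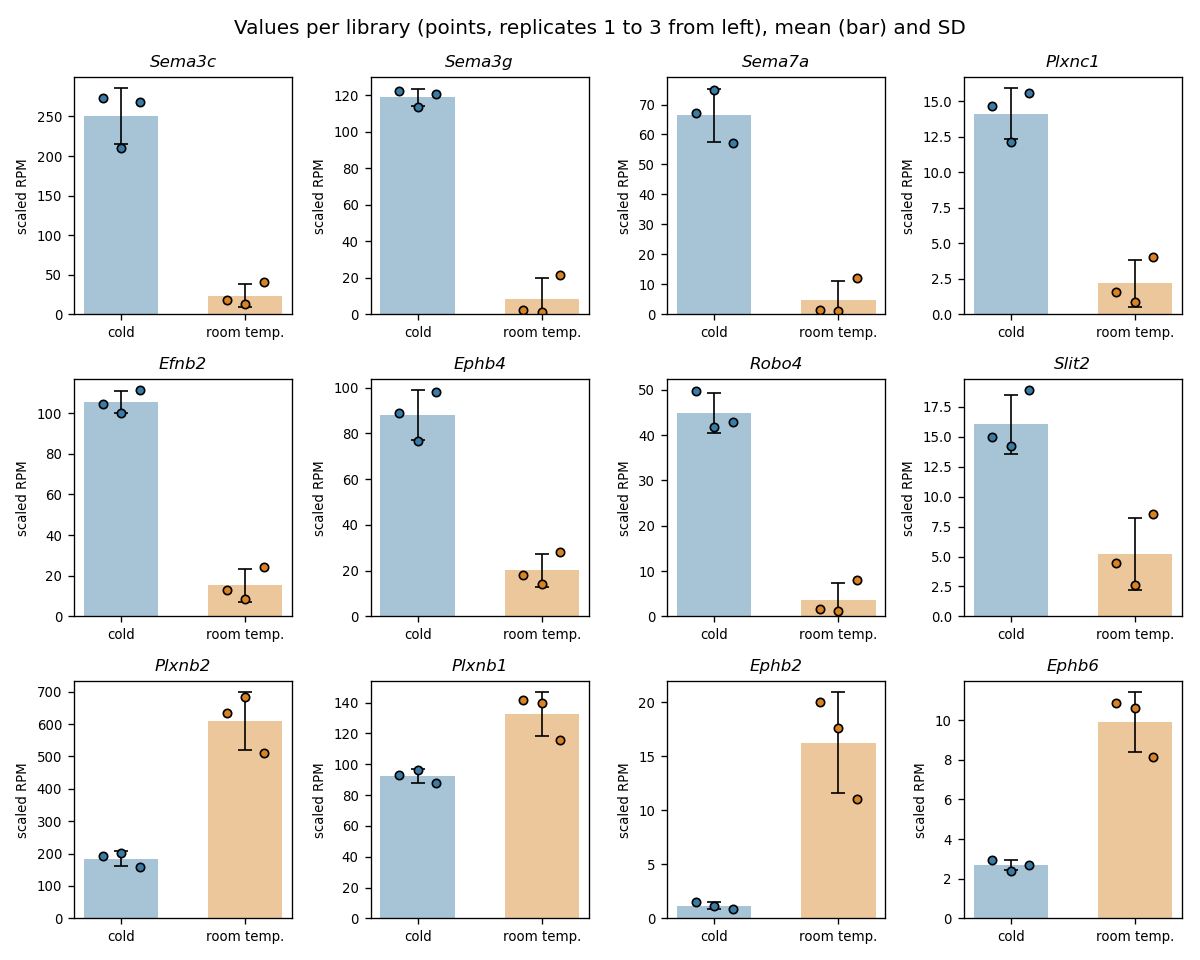
Scaled RPM of 12 members in each library. Points are replicates 1 to 3 from the left, bars are means and whiskers SDs. In the upper 8 panels every cold point lies above every room temperature point, and in the lower 4 panels every cold point lies below; in the upper 8, room temperature replicate 3 is the highest of its group.

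Plexins, the semaphorin receptors, were all called, 5 upward and 4 downward of 9, where 70.5% of all genes tested were called. The B-type plexins fell. Plxnb2, widespread in epithelia (chromosome 15, 89155549 to 89180788 on GRCm38), had the highest level of any member per kilobase of exon at room temperature and over both groups, but not in cold, and stood at 194, 202 and 157 scaled RPM in cold and 633, 683 and 509 at room temperature. Its highest cold library lay far below its lowest room temperature library (log2 change -1.72 ± 0.15, adjusted p = 7.5e-05). Plxnb3, the scarce B-type plexin, had 0.439, 0.663 and 0.359 in cold and 3.25, 4.61 and 1.93 at room temperature (log2 change -1.88 ± 0.29, adjusted p = 0.00076). Its cold values lie near the 0.5 RPM added before the log, and the change was -1.05 with 2 RPM added and -2.70 by voom. Plxnb1, the receptor of Sema4d, had 93.1, 96.2 and 87.6 in cold and 141, 139.6 and 116 at room temperature. Its change of -0.51 ± 0.11 (adjusted p = 0.0036) shrank to -0.19 under library totals and lost its call there (adjusted p = 0.11).

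The other plexins mostly rose. Plxnc1, the receptor of Sema7a, stood at 14.6, 12.1 and 15.6 scaled RPM in cold and 1.59, 0.900 and 4.04 at room temperature (log2 change 2.62 ± 0.40, adjusted p = 0.00099). Plxna2, a receptor of class 6 semaphorins and of class 3 ones with neuropilin, had 31.4, 27.6 and 32.5 in cold and 8.87, 7.66 and 11.5 at room temperature (log2 change 1.67 ± 0.15, adjusted p = 9.2e-05). Plxna1 had 85.4, 65.8 and 74.8 in cold and 31.6, 23.6 and 36.995 at room temperature (log2 change 1.29 ± 0.18, adjusted p = 0.00045). None of these 3 genes overlapped between groups. Plxna4, another class 3 receptor, had 14.99, 17.9 and 15.5 in cold and 6.10, 3.63 and 9.32 at room temperature (log2 change 1.36 ± 0.29, adjusted p = 0.0044). The endothelial Plxnd1 had 47.9, 37.995 and 40.7 in cold and 25.995, 17.7 and 30.3 at room temperature (log2 change 0.79 ± 0.20, adjusted p = 0.0082). Plxna3 was the A-type plexin that fell, at 4.39, 4.65 and 4.74 in cold against 10.7, 9.20 and 6.20 at room temperature (log2 change -0.82 ± 0.20, adjusted p = 0.0068, and -0.52 under library totals).

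Slits and robos were called in the upward direction where called. Slit2, a secreted repellent, had 14.997, 14.3 and 18.9 scaled RPM in cold and 4.46, 2.66 and 8.52 at room temperature (log2 change 1.66 ± 0.36, adjusted p = 0.0050). Slit3 had 10.96, 8.95 and 8.93 in cold and 6.72, 2.06 and 11.1 at room temperature. Its room temperature libraries spread from 2.06 to 11.1 and enclosed the cold ones, with an adjusted p of 0.24 that became 0.035 without room temperature replicate 3. Robo4, the endothelial member of the family (chromosome 9, 37401897 to 37415115 on GRCm38), stood at 49.8, 41.8 and 42.96 in cold and 1.66, 1.28 and 8.04 at room temperature. Cold libraries were at least 5 times as high as room temperature replicate 3, the highest of its group (log2 change 3.82 ± 0.57, adjusted p = 0.0012). Robo2, a slit receptor of neurons, had 6.01, 5.12 and 6.51 in cold and 1.19, 1.22 and 2.73 at room temperature (log2 change 1.59 ± 0.27, adjusted p = 0.0013, and 0.81 on log2 of RPKM plus 0.01). Robo1, its broadly expressed relative, overlapped between groups at 8.52, 8.59 and 12.5 in cold and 14.4, 12.1 and 8.52 at room temperature (adjusted p = 0.40). Robo2 and Robo1 span 520 and 738 kb, so their deposited values of 0.002 to 0.019 RPKM are 2 to 19 rounding steps.

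Netrins rose where called, and their Unc5 receptors split. Ntn4, a netrin of basement membranes, had 52.9, 54.5 and 56.7 scaled RPM in cold and 13.5, 9.71 and 19.3 at room temperature (log2 change 1.96 ± 0.22, adjusted p = 0.00023). Ntng2, a membrane-anchored netrin relative that does not bind Dcc, had 8.05, 7.65 and 8.996 in cold and 1.67, 1.64 and 2.33 at room temperature (log2 change 1.88 ± 0.17, adjusted p = 8.4e-05). Ntn1, the founding secreted netrin, had 42.4, 40.5 and 32.5 in cold and 21.04, 18.1 and 27.5 at room temperature (log2 change 0.79 ± 0.17, adjusted p = 0.0042). In all 3 the groups were apart. Ntn5 overlapped between groups (adjusted p = 0.40); the other two Ntn5 rows, under gene IDs with no span in the annotation used, stood at 0.047 to 0.092 deposited RPKM in cold and 0.051 to 0.109 at room temperature.

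Unc5b, the endothelial netrin receptor and the Unc5 gene with the highest level per kilobase of exon, was nearly level at 10.9, 10.1 and 10.3 scaled RPM in cold and 9.63, 9.43 and 9.78 at room temperature. The groups did not overlap, yet the log2 change was 0.11 ± 0.10 with an adjusted p of 0.36, and 0.42 with an adjusted p of 0.010 under library totals. Unc5a, known from neurons, fell, with 2.01, 2.54 and 1.82 in cold and 5.51, 5.23 and 3.86 at room temperature (log2 change -1.03 ± 0.19, adjusted p = 0.0020). Unc5c had 2.96, 3.98 and 3.97 in cold and 0.846, 0.432 and 2.72 at room temperature, where replicate 3 came close to the lowest cold library (log2 change 1.37 ± 0.43, adjusted p = 0.024). That call was lost without cold replicate 2 (adjusted p = 0.065) or 3 (0.070) and without room temperature replicate 1 (0.079), and the change was 0.68 on log2 of RPKM plus 0.01. Unc5d was called higher, but its deposited values are 0.001 RPKM in each cold library and 0 in each room temperature library. That is the last deposited decimal of a gene spanning 573 kb. With each value moved to the edge of its rounding interval so that the groups come closer, a form chosen after seeing the data, its log2 change was -0.12 (adjusted p = 0.48).

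Ephrins of the B type rose and those of the A type mostly fell. Efnb2, ephrin-B2 of arterial endothelium (chromosome 8, 8617434 to 8661242 on GRCm38), stood at 105, 100.3 and 111 scaled RPM in cold and 12.99, 8.29 and 24.3 at room temperature. Cold libraries exceeded each room temperature library by at least 4 times (log2 change 2.88 ± 0.35, adjusted p = 0.00045). Efnb1 had 55.7, 53.6 and 48.2 in cold and 13.1, 11.2 and 21.5 at room temperature (log2 change 1.80 ± 0.22, adjusted p = 0.00035), and Efnb3 had 2.36, 1.75 and 1.78 in cold and 0.721, 1.01 and 0.757 at room temperature (log2 change 0.89 ± 0.18, adjusted p = 0.0032). The change of Efnb3 was 0.49 with 2 RPM added and 1.498 on log2 of RPKM plus 0.01. The 3 genes encode transmembrane ligands of EphB receptors, and none overlapped between groups. Efna1, a lipid-anchored ligand of EphA2 and the most abundant A-type ephrin, rose, with 32.9, 25.4 and 27.98 in cold and 13.1, 12.9 and 17.9 at room temperature (log2 change 0.96 ± 0.16, adjusted p = 0.0011). Efna5 fell to 3.69, 3.72 and 3.72 in cold, against 7.61, 7.12 and 9.31 at room temperature (log2 change -1.01 ± 0.14, adjusted p = 0.00056, and -0.52 on log2 of RPKM plus 0.01). Efna5 spans 277 kb, and its 3 cold libraries hold the same deposited value of 0.015 RPKM. Rounding thus hides any smaller spread between them. Efna4 had 1.68, 1.97 and 1.37 in cold and 3.54, 4.68 and 3.18 at room temperature (log2 change -0.98 ± 0.20, adjusted p = 0.0030). Efna3 had 2.30, 2.23 and 1.54 in cold and 2.96, 4.92 and 4.09 at room temperature; its call (log2 change -0.82 ± 0.22, adjusted p = 0.012) was lost without cold replicate 3 (adjusted p = 0.052) and under library totals (0.061). Efna2 overlapped between groups (adjusted p = 0.84).

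Eph receptors are given by type. EphB receptors, the partners of B-type ephrins, were called lower in 3 of 4 tested and higher in 1. The shares over all genes tested were 35.0% and 35.5%. Ephb4, the venous receptor of ephrin-B2, had 88.9, 76.7 and 98.3 scaled RPM in cold and 18.2, 14.1 and 28.1 at room temperature (log2 change 2.15 ± 0.24, adjusted p = 0.00022). Its cold libraries lay at least 2 times above each room temperature library. Ephb2, which sorts epithelial cells in the gut of mice and guides axons, had 1.51, 1.18 and 0.843 in cold and 20.1, 17.6 and 11.1 at room temperature. That was the largest fall among the 60 tested members, and the highest cold library lay far below the lowest room temperature library (log2 change -3.30 ± 0.25, adjusted p = 5.7e-05). Ephb6, a receptor without kinase activity, had 2.92, 2.41 and 2.70 in cold and 10.9, 10.6 and 8.16 at room temperature (log2 change -1.70 ± 0.16, adjusted p = 9.8e-05). Ephb3 fell only slightly, at 22.5, 21.8 and 18.2 in cold against 26.5, 24.8 and 26.2 at room temperature (log2 change -0.31 ± 0.11, adjusted p = 0.035). Its call was lost without cold replicate 2 (adjusted p = 0.071) or 3 (0.12), without room temperature replicate 1 (0.083) and under library totals, where the log2 change was 0.01.

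EphA receptors were higher or not called. Epha4, a receptor of both ephrin types, had 9.07, 9.81 and 12.04 scaled RPM in cold and 6.26, 4.15 and 6.83 at room temperature (log2 change 0.81 ± 0.20, adjusted p = 0.0079). Epha7 had 3.15, 4.84 and 4.14 in cold and 1.77, 0.902 and 2.59 at room temperature (log2 change 1.07 ± 0.30, adjusted p = 0.014, and 0.70 with 2 RPM added) and lost its call without cold replicate 2 (adjusted p = 0.053). Epha3, at 1.42, 2.01 and 2.29 in cold and 0.367, 0.375 and 1.35 at room temperature, lost its call (log2 change 1.09 ± 0.32, adjusted p = 0.017) without cold replicate 2 (adjusted p = 0.052) or 3 (0.066) and without room temperature replicate 1 (0.067). Its change was 0.48 on log2 of RPKM plus 0.01 and 1.66 by voom. Epha2, a receptor of ephrin-A1 in epithelium and endothelium and the EphA gene with the highest level, had 44.2, 53.5 and 30.8 in cold and 18.6, 24.7 and 43.1 at room temperature. Room temperature replicate 3 stood within the cold range, the adjusted p was 0.14, and without that replicate it was 0.0094. Epha1 overlapped between groups (adjusted p = 0.50). Of the members matched by name only, Unc5cl fell, with 2.86, 4.03 and 3.41 in cold and 13.6, 13.2 and 9.26 at room temperature (log2 change -1.66 ± 0.19, adjusted p = 0.00021), and Unc50 was not called at 23.4, 25.4 and 28.7 in cold against 20.4, 23.2 and 22.6 at room temperature, though the groups did not overlap (adjusted p = 0.11, and 0.0043 under library totals).

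Promoters of the ephrins Efnb1 and Efnb2, which rose, and of the receptors Ephb2 and Ephb6, which fell, are shown because binding partners moved in opposite directions. The 4 genes were chosen after their values and motif matches were seen. Each is the RefSeq window (GRCm38.p6) from 250 bases before to 50 after the start of transcription, read 5′ to 3′ on the gene's strand. Capitals mark the letters searched, which were CACGTG (E-box), TGACG (core of the cAMP response element) and CCGGAA (ETS factor core), on both strands. Matches of different motifs could share letters, but each of these windows holds 1 match. Efnb1 lies at chrX:99135811-99136110 (+), Efnb2 at chr8:8661193-8661492 (-), Ephb2 at chr4:136835963-136836262 (-) and Ephb6 at chr6:41605261-41605560 (+).
Efnb1: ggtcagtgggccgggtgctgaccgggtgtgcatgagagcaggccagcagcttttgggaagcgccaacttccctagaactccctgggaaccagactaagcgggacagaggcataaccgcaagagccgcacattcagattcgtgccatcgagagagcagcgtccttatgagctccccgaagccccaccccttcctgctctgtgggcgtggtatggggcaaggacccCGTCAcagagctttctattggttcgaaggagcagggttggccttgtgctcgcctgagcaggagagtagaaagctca
Efnb2: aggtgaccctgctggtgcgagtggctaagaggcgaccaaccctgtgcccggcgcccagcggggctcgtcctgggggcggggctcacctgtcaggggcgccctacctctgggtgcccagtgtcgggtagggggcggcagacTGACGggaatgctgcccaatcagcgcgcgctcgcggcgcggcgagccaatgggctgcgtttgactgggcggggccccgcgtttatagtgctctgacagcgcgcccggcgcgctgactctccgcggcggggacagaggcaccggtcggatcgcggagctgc
Ephb2: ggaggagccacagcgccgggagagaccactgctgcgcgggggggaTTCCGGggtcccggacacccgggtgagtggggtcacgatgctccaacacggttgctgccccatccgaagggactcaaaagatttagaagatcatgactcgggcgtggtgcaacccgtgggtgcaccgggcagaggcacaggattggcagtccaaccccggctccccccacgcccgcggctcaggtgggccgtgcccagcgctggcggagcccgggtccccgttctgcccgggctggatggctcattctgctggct
Ephb6: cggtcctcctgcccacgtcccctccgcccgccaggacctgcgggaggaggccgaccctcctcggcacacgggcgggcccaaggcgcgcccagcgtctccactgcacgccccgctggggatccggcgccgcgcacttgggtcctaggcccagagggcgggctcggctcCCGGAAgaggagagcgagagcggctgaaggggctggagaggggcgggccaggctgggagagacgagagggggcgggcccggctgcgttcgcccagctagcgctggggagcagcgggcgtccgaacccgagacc
The windows of Efnb1 and Efnb2, which rose, hold TGACG, starting 26 bases before the start in Efnb1 (on the opposite strand, read as CGTCA) and 110 bases before it in Efnb2. Those of Ephb2 and Ephb6, which fell, hold CCGGAA, 205 bases before the start in Ephb2 (on the opposite strand) and 83 before it in Ephb6. The other EphB genes do not follow that split: Ephb3, which fell, holds TGACG 79 bases before its start, and the window of Ephb4, which rose, holds none of the 3 motifs. Of the 67 member symbols 58 had a promoter in the RefSeq table, some with several windows, and 10 of them (17.2%) held TGACG, 8 (13.8%) CCGGAA and 5 (8.6%) CACGTG. Over 27025 symbols the shares were 23.0%, 16.7% and 8.1%. Among members that rose, 26 had a promoter in the table: 6 (23.1%) held TGACG, 2 held CACGTG and 0 held CCGGAA. Among the 15 that fell, 1 held TGACG, 2 held CACGTG and 4 held CCGGAA. A match is a description of letters and not a bound site.

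Known ligands and receptors can be set side by side on the log2 scale. Sema7a and its receptor Plxnc1 changed by 4.29 and 2.62, and Efnb2 and its venous receptor Ephb4 by 2.88 and 2.15. Sema4d and Plxnb1 changed by -0.35 and -0.51, and both calls were lost under library totals. In other pairs the partners were called differently, and the difference between partners was not tested. Sema3e fell by 0.33 while its receptor Plxnd1 was higher by 0.79, and Ntn1 was higher by 0.79 with its receptor Unc5b not called. Under library totals the call of Sema3e was lost (log2 change -0.01), and Unc5b was called higher (0.42, adjusted p = 0.010). Efna1 was higher by 0.96 with Epha2 not called. Slit2 was higher by 1.66 with its receptor Robo1 not called, while its receptor Robo2 was also called higher, by 1.59. Ephb2, a receptor of B-type ephrins, fell by 3.30 while all 3 of those ephrins rose.

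Levels per kilobase of exon put different genes on top in the groups. In cold, Sema3c led with a mean of 35.1 scaled RPM per kb, followed by Sema3g (26.2), Plxnb2 (23.9), Sema7a (20.1), Ephb4 (19.0) and Sema3f (18.3). At room temperature, Plxnb2 led with 78.8, far above Unc50 (14.0), Plxnb1 (13.8), Efna1 (7.99), Sema3f (6.24) and Epha2 (6.16). In the room temperature order Unc50 and Plxnb1 differ by less than the spread of either gene's libraries. These levels rest on exon lengths of GENCODE M21, and whether reads in introns were counted was not given in the sources used here. Summed over the 67 members with a span, the cold libraries held 1862 to 1980 scaled RPM and the room temperature libraries 1381 to 1397. Without Plxnb2 the sums were 1661 to 1786 in cold and 698 to 887 at room temperature.

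**Figure D3:**
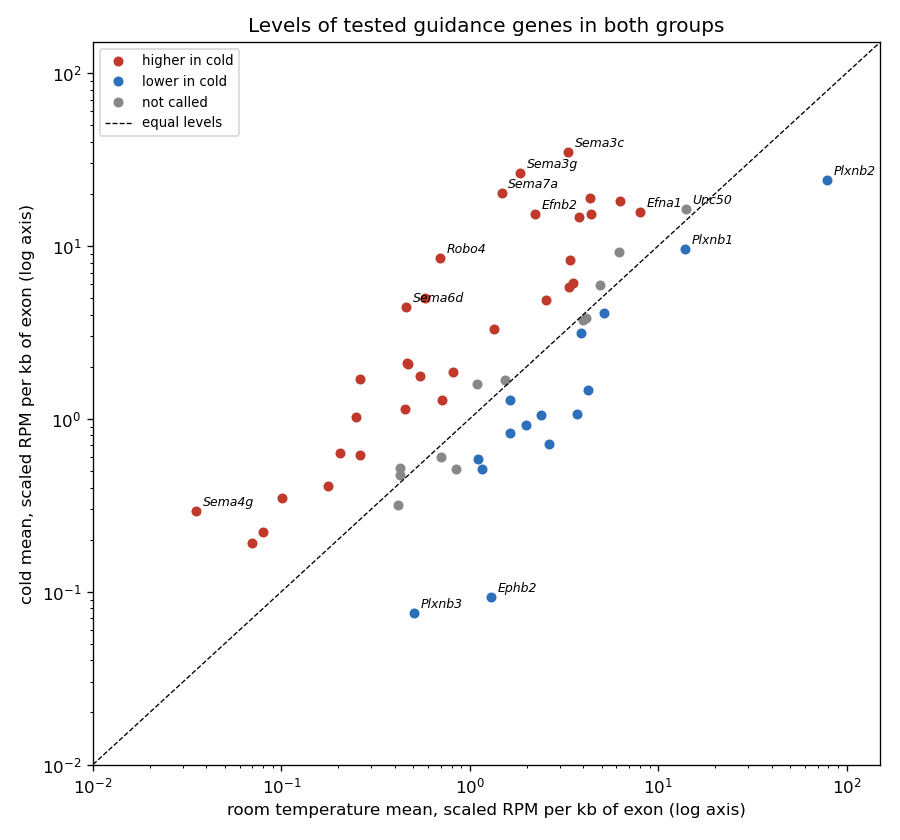
Mean level of tested members in cold (vertical) against room temperature (horizontal), in scaled RPM per kb of exon, both axes logarithmic; Unc5d, at 0 at room temperature, is not drawn. Points above the dashed line are higher in cold; Plxnb2 stands at 23.9 in cold and 78.8 at room temperature, and Sema3c at 35.1 and 3.33.

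Room temperature replicate 3 stood apart within its group. Among the 33 members that rose it was the highest room temperature library for 30 (90.9%), where it was so for 70.1% of all genes called higher. Among the 15 that fell it was the lowest for 11 (73.3%), where it was so for 73.3% of all genes called lower. The endothelial marker sum was 757 in that library and 208 and 116 in room temperature replicates 1 and 2. Without it 35 members were called higher and 15 lower. Of all 15238 genes tested, 5455 were then called higher and 5545 lower, against 5413 and 5335 with that library. Of 10 members known from vascular endothelium, though several are also epithelial, 8 rose, 0 fell and 2 (Epha2 and Unc5b) were not called. The 8 were Efna1, Efnb2, Ephb4, Plxnd1, Robo4, Sema3f, Sema3g and Sema6a. The median log2 change of the 10 was 1.85. The other 50 tested members split into 25 higher and 15 lower with a median of 0.77. Over all genes tested, 35.5% were called higher and 35.0% lower. The 10 were listed with earlier results of these data known, so these counts only describe the list. The endothelial marker sum was higher and the club cell marker sum lower in cold, while members changed in both directions. The part of these cell types was not tested.

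**Figure D4:**
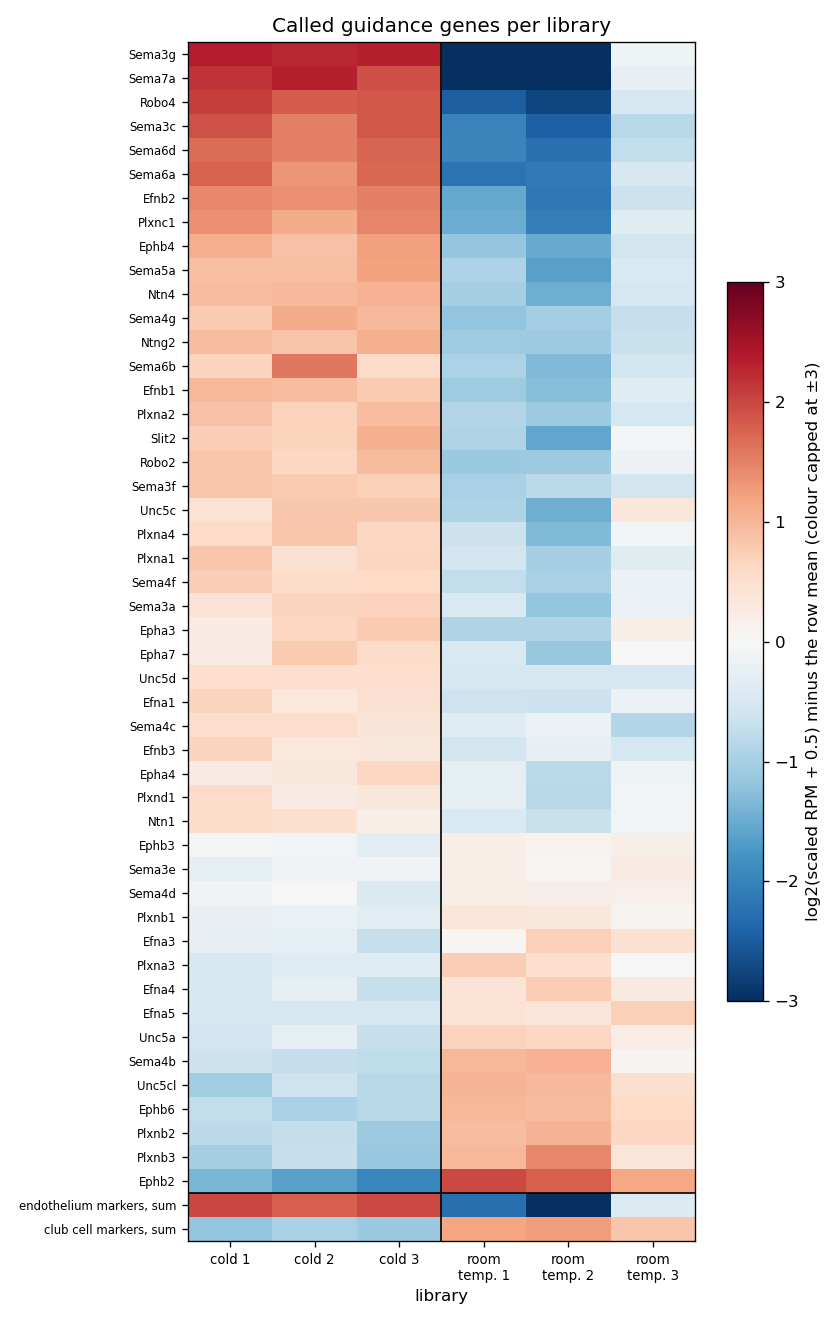
Log2 of scaled RPM plus 0.5 in each library for the 48 called members, each row centred on its mean over the 6 libraries and sorted by change, with summed endothelial and club cell markers below the line. Red is above and blue below the row mean; room temperature replicate 3 is paler than replicates 1 and 2 in most rows, and so is it in both marker sums.

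Set against the summed endothelial markers of the same library, nearly all genes lay lower in cold, where that sum itself was far higher. Per 1000 scaled RPM of those markers, 94.5% of all genes tested lay wholly lower in cold and 0.663% wholly higher. Of the 60 tested members 52 lay wholly lower, 2 wholly higher (Sema3g, and Unc5d by a single rounding step) and 6 overlapped (Sema3c, Sema4g, Sema6b, Sema6d, Sema7a and Robo4). Robo4 stood at 12.5, 12.04 and 10.8 in cold and 8.01, 11.03 and 10.6 at room temperature, whereas Efnb2 stood at 26.1, 28.9 and 28.1 in cold and 62.5, 71.4 and 32.1 at room temperature. Per 1000 scaled RPM of club cell markers, a sum far lower in cold, 89.9% of all genes tested lay wholly higher in cold and 2.46% wholly lower. Of the 60 tested members 57 lay wholly higher, and 1, Ephb2, wholly lower, at 0.0711, 0.0483 and 0.0376 in cold against 0.182, 0.152 and 0.128 at room temperature. Ephb6 and Plxnb3 overlapped on that scale. These proportions are descriptions, and no cause was tested.

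Other genes of the pathway changed in both directions. Of 89 listed co-receptors, further ligands and intracellular effectors 85 were tested, with 40 called higher, 23 lower and a median of 0.22 on the log2 scale. Over all genes tested, 35.5% were called higher and 35.0% lower. Under library totals 48 of the listed genes rose and 16 fell. That scaling also moved the calls over all 15238 genes, to 7034 higher and 3766 lower. Co-receptors and other guidance receptors split into 4 higher and 6 lower of 12. Nrp1, neuropilin 1, the co-receptor of class 3 semaphorins and VEGF, had 270.4, 277 and 286 scaled RPM in cold and 33.5, 22.5 and 83.3 at room temperature (log2 change 2.79 ± 0.44, adjusted p = 0.0016). Nrp2 had 27.4, 28.6 and 27.5 in cold and 14.3, 9.85 and 19.3 at room temperature (log2 change 0.97 ± 0.22, adjusted p = 0.0050). Neither neuropilin overlapped between groups. Neo1, neogenin, was not called (adjusted p = 0.86), and Dcc was not analysed here. The chemokine Cxcl12 and its receptor Cxcr4, which also guide neurons, rose by 1.85 ± 0.49 and 2.20 ± 0.31. The adhesion receptors Dscaml1 and Nrcam averaged 0.195 ± 0.169 and 1.54 ± 0.134 in cold, against 3.45 ± 0.936 and 4.50 ± 0.556 at room temperature (SD, n = 3), and both fell. Dscaml1 spans 327 kb, and its cold values of 0, 0.293 and 0.293 differ by a single rounding step. Its SD in cold is thus set by rounding, and these values lie below the 0.5 RPM added before the log.

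Among further ligands 4 rose and 3 fell of 12. Flrt3, a ligand of Unc5 receptors, averaged 32.8 ± 2.36 scaled RPM in cold and 4.07 ± 2.34 at room temperature, and the neurotrophin Bdnf 17.97 ± 2.07 in cold and 1.58 ± 2.10 at room temperature (SD, n = 3). Rgma and Rgmb, ligands of neogenin, fell by 1.40 and 0.68 on the log2 scale. Semaphorin and plexin effectors were higher in 9 and lower in 2 of 14, and the smallest p-values of the higher ones were those of the collapsin response mediator gene Dpysl5 (log2 change 2.28 ± 0.20) and the small GTPase Rnd1 (2.32 ± 0.25). Dpysl2, of the same family as Dpysl5 and named after its values were seen, had the largest change of that list (2.94 ± 0.46, adjusted p = 0.0014), while Gipc1 (-1.58 ± 0.19) and Dpysl3 (-0.68 ± 0.10) fell. Netrin effectors were higher in 7 and lower in 0 of 11, with the actin-binding Ablim1 at 1.56 ± 0.11 and the focal adhesion kinase Ptk2 at 1.12 ± 0.13. Slit and robo effectors split into 5 higher and 4 lower of 12, among them the adaptor Nck1 (1.27 ± 0.16) and the actin regulator Enah (-1.32 ± 0.10). Eph and ephrin effectors split evenly, 6 higher and 6 lower of 13, with the exchange factors Vav3 at 1.81 ± 0.18 and Tiam1 at -1.96 ± 0.15. Set against 35.5% and 35.0% of all genes tested, these counts are read as descriptions of the lists.

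Members that were not tested number 9. Epha5 and Ntng1 were listed at 0 RPKM in all 6 libraries. Slit1 was listed at 0.001 in each cold library and at 0 in each room temperature library, a single rounding step. Epha8, Robo3 and Sema5b had at most 0.001, 0.017 and 0.002 RPKM in any library. Ephb1 was listed at 0 in the cold libraries and at 0.001, 0 and 0.005 at room temperature. The other 2 were the Ntn5 rows without a span, which were left out before the filter was applied. Of the 67 members with a span, Epha1, Ephb1, Ephb4, Ntn5 and Unc5a overlap another protein-coding gene, and since strand use is not stated, reads shared there cannot be assigned.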

How the data were processed

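Per the labels' protocols, the NEBNext Ultra II RNA kit turned lung total RNA into libraries; the submitters' processing notes name build mm10, and what aligned, counted or annotated the reads was not given in the sources used here. In the deposited table there is 1 RPKM value per gene and library, which the authors rounded to 3 decimals. Its name speaks of raw counts, yet value times gene span (start to end, GENCODE M21) fell on whole multiples of a step per library: within genes under 5 kb and 20 reads, 83.1% to 86.2% were whole within 0.1, which gives the depth. The authors' deposited log2 fold changes, p-values and q values are used only in the closing section. Columns of other samples number 0; 92 rows without a span were left out.

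RPM (RPKM times span in kb) was scaled by a trimmed mean of M values without weights (30% and 5% trimmed) and log2 of scaled RPM plus 0.5 was fitted with limma 3.58.1 in R 4.3.3 (trend, robust, group only; two-sided; Benjamini-Hochberg, threshold 0.05). Genes needed 0.267 RPM before scaling (10 reads at the median depth) in 3 libraries and 15 reads in all. The precision is limited by 3 libraries a group and, for long genes, by rounding. Members, gene lists, tests and the rule for named members (in each family up to 4 called genes per direction by smallest p and the highest level) were chosen with earlier results of these data known. The alternatives were library totals, 0.1 or 2 RPM added, no filter, log2 of RPKM plus 0.01, voom, a replicate block, each library left out, and moved rounding edges. Same-numbered libraries deviated together weakly (correlation across genes 0.115, 0.149 and 0.155, each above the chosen threshold of 0.1). Deviations from a group mean cancel within each group, so some matching of libraries between groups tends to correlate positively. These values therefore cannot establish a pairing, and no litter or day is stated. The replicate block is given only as an alternative. The printed p-values are from the fit without it. Within groups no libraries agreed within sampling noise (chi-square per degree of freedom 16.0 to 89.6). The procedure was also run on simulated data in which few genes changed, evenly up and down, and no library stood apart. In the present data 70.5% of genes were called, so that run does not show how the procedure behaves here. Values of some listed genes are not reported here.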

Additional observations from a re-analysis of the deposited data

How the results depend on the processing

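Of the 48 called members 39 kept their call under each of 14 alternatives, 9 lost it under at least 1 and 6 others gained one. The count of members ranged over 30 to 36 higher and 10 to 16 lower; leaving out 1 library gave 30 to 35 higher and 12 to 15 lower. With the replicate block the counts were 33 and 16, and it changed no member's call other than that of Sema3d. Apart from Unc5d, sign changes concerned genes without a call and Ephb3, and the cause was not tested. Under library totals these were Ephb3 (0.012), Robo1 (0.094), Sema4a (0.199) and Epha1 (0.211), and on log2 of RPKM plus 0.01 Ephb3 (0.012), Robo1 (0.058), Sema4a (0.202) and Epha1 (0.216). Leaving out 1 library gave Efna2 -0.163 to 0.364 (below 0 without cold replicate 1 or room temperature replicate 2), Sema4a -0.254 to 0.068 (above 0 without cold replicate 3) and Sema6c -0.074 to 0.57 (below 0 without room temperature replicate 2). Moved rounding edges, chosen after seeing the data, turned Unc5d to -0.12. Of the other pathway genes 15 were lower on log2 of RPKM plus 0.01, against 23. Depth and rounding limit the genes of long span: Unc5c, Epha3 and Robo2 rest on at most 14 steps of the last deposited decimal.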

Other observations

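In the authors' deposited table, q values under 0.05 marked 21 members as higher and 7 as lower, where 12.7% and 12.0% of its rows were. All 21 higher ones and 6 of the 7 lower ones were also called here, which is 21 of 33 and 6 of 15 of the calls made here. The one not shared is Ephb1, below the filter used here: the authors' deposited table gives it a log2 change of -1.58 although its RPKM are 0 in cold and 0.001, 0 and 0.005 at room temperature. The authors' deposited table also calls Unc5d, at 0.001 in cold and 0 at room temperature, with a log2 change of 1.00.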
